A study of Sus scrofa with 12 samples.

Results

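Secreted and membrane proteins pass through the endoplasmic reticulum (ER), and the genes of that passage were compared here between the livers of SINS high and SINS low piglets. The set has 57 genes in 5 classes, which cover targeting and translocation, glycosylation, folding, stress sensors and degradation. A gene was found when exactly 1 gene symbol was annotated to its array transcript, and the transcript with the highest mean over the arrays stood for it. In this way 46 genes were found under the symbol in the set and 2 under a newer symbol (ERO1L as ERO1A, SRPR as SRPRA), so that 48 of the 12307 named genes on the array were members. SEC62, SSR3, RPN2, HSP90B1, DNAJC3, P4HB, HERPUD1, SYVN1 and DERL2 were not analysed here. The members were listed by function, with earlier results of these data known.

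Swine inflammation and necrosis syndrome (SINS) shows as swelling, reddening, exudation and necrosis at the tail, ears, teats and claws. The SINS high group was made of the 6 piglets with the highest clinical scores in a scored cohort and the SINS low group of the 6 piglets with no or slight signs, all suckling offspring of hybrid sows and Pietrain boars from a single herd, scored on the third day of life. All piglets were anaesthetized with ketamine and azaperone and killed with pentobarbital before the liver was taken. Each group was of mixed sex, and neither the sex nor the litter of a single piglet was used. Each liver was measured on 1 array, and the deposited values are log2 expression values after RMA. The groups are therefore the extremes of a score, and other differences between such piglets cannot be told apart from the syndrome.

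Ribosomes that begin to make a protein with a signal sequence are bound by the signal recognition particle, docked at its receptor and led to the Sec61 channel, through which the chain enters the ER. There signal peptidase removes the signal sequence, oligosaccharyltransferase attaches sugar chains, and chaperones and disulfide isomerases fold the product, while chains that fail are sent back to the cytosol for degradation. The sensors ERN1 (IRE1), EIF2AK3 (PERK) and ATF6 detect unfolded protein and raise the expression of chaperones, a program called the unfolded protein response. Hepatocytes make most plasma proteins and are rich in ER.

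Median log2 values of the 12 arrays were 4.36 to 4.42, and precision is limited by how few arrays there are. The hepatocyte markers fitted the label liver, with group means of 12.67 in SINS high and 12.66 in SINS low for ALB, the albumin gene, and 0 of 5 measured markers passed the filter in either direction. Some markers of other cells passed the filter, which is given below and called 2.3% of all named genes higher and 3.8% lower. The piglet means of both groups overlapped in each marker set, and a count of 1 gene does not set a cell type apart. Of 8 markers of red cell precursors 5 were higher in SINS high (mean difference from the gene means 0.05 to 0.74 per piglet in SINS high and −0.76 to 0.20 in SINS low), and of 9 Kupffer cell markers 3 were higher (−0.20 to 0.48 in SINS high and −0.47 to 0.11 in SINS low). Of 7 endothelial markers 1 was higher (−0.25 to 0.45 in SINS high and −0.47 to 0.14 in SINS low), of 5 markers of neutrophil precursors 1 was higher (−0.29 to 0.81 and −1.02 to 0.56), of 5 proliferation markers 1 was lower (−1.23 to 0.38 and −1.10 to 0.95), and of 5 bile duct markers 0 passed (−0.23 to 0.10 and −0.04 to 0.14). Plasma cells and B cells, which are rich in ER as well, were represented by 6 markers, of which 1 was higher (−0.10 to 0.26 in SINS high and −0.29 to −0.02 in SINS low). The part of these cells in the results below was not tested. In a whole piece of liver, fewer cells of a type and less RNA per cell cannot be told apart.

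Of the 48 members 3 were lower in SINS high and 0 were higher, and all 3 take part in targeting and translocation: LRRC59, SSR1 and SPCS3. A gene was called with the filter of the study, a fold change above 1.3 (0.379 on the log2 scale) and an unadjusted p below 0.05, here from limma. The members' share called lower was 6.25%, against 3.8% of all named genes, while 2.3% of all named genes were called higher and 6.1% were called in either direction. The values of SINS high and SINS low overlapped for every member, as they did for all but 0.244% (lower) and 0.219% (higher) of the named genes. The direction was more uniform than the calls. The log2(FC), SINS high minus SINS low, was negative for 42 of the 48 members, against 49.3% of all named genes, and the median was −0.16 over the members and 0.00 over all named genes. Members of a pathway vary together between piglets, so that their number is not a number of independent results. After Benjamini-Hochberg adjustment across the 25388 transcripts, limma called 0 members (smallest adjusted p = 0.356), and 0.0% of all transcripts had an adjusted p below 0.05. An unadjusted p below 0.05 was found with limma for 4 of the 48 members, against 13.1% of all named genes.

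**Figure D1:**
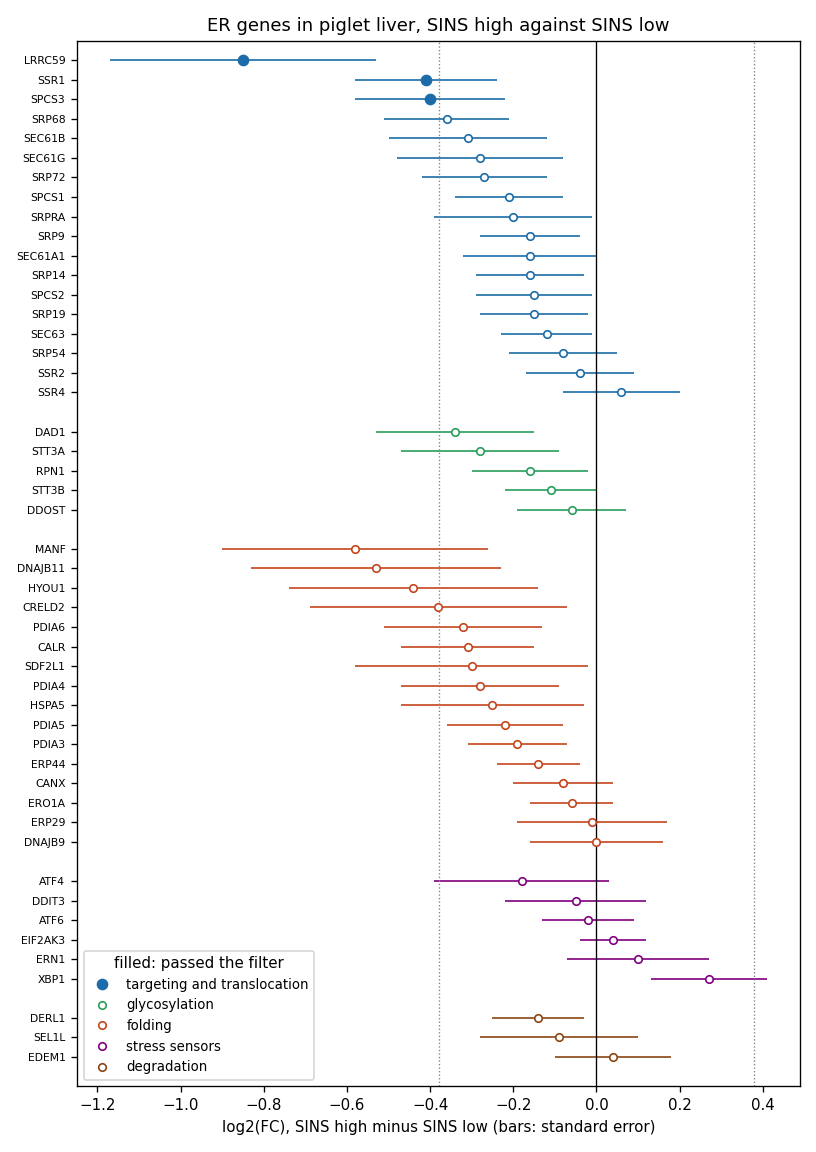
Log2(FC) of the 48 members, SINS high minus SINS low, with the standard error from limma as bars and 1 colour per class. Dotted lines mark a fold change of 1.3 in either direction and filled points the 3 genes that passed the filter. The points of translocation, glycosylation and folding lie left of 0 with the exception of SSR4 and, at 0.00, DNAJB9, whereas those of the stress sensors lie on both sides.

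Targeting and translocation held the 3 lower genes among its 18 measured members. The log2(FC) was below 0 for 17 of them, with a median of −0.18 and a range of −0.85 to 0.06. LRRC59 encodes a ribosome-binding protein of the ER membrane. Its log2 values in SINS high replicates 1 to 6 were 7.81, 7.64, 6.58, 7.70, 8.12 and 8.78, and those in SINS low replicates 1 to 6 were 8.80, 8.99, 8.77, 8.00, 7.87 and 9.31. Thus 4 of the 6 SINS high piglets lay below every SINS low piglet, SINS high replicate 6 lay with the SINS low piglets, and SINS low replicates 4 and 5 lay near the other SINS high piglets. The means were 7.77 ± 0.72 in SINS high and 8.62 ± 0.57 in SINS low (SD, n = 6 each), which gives a log2(FC) of −0.85 with a standard error of 0.32 (limma, adjusted p = 0.356, exact permutation test, two-sided p = 0.039). This was a fold change of 1.80, and LRRC59 passed the filter in all 12 fits that each left out 1 array, with −1.05 to −0.61. The paper reports a qPCR of LRRC59 that was lower in SINS high as well, but without a significant difference.

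SSR1, the alpha subunit of the translocon-associated protein complex at the Sec61 channel, again had SINS high replicate 6 highest and replicate 3 lowest in its group. Its lowest, median and highest values were 7.47, 7.94 and 8.58 in SINS high and 7.96, 8.40 and 8.75 in SINS low, and 4 SINS high piglets lay below every SINS low piglet. The log2(FC) was −0.41 (standard error 0.17, exact permutation test, two-sided p = 0.0563). SPCS3, a subunit of signal peptidase, ranged over 8.13, 8.44 and 8.88 in SINS high and 8.29, 8.95 and 9.37 in SINS low, with a log2(FC) of −0.40 (standard error 0.18, exact permutation test, two-sided p = 0.0866). Both calls sat at the edge of the filter. SSR1 did not pass it without SINS high replicate 1, 3 or 5 or SINS low replicate 2 or 6, and SPCS3 did not without any of SINS high replicates 1 to 5 or SINS low replicates 1, 2, 3 or 6.

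The other parts of this class did not pass the filter. SRP68, a protein of the signal recognition particle, had an unadjusted p of 0.0347 but a log2(FC) of −0.36, a fold change of 1.28. Its lowest, median and highest values were 6.78, 7.18 and 7.91 in SINS high and 7.33, 7.60 and 7.77 in SINS low. Here 5 SINS high piglets lay below all SINS low piglets and SINS high replicate 6 above all of them. The 7 proteins of the signal recognition particle and its receptor had log2(FC) of −0.36 to −0.08, with −0.27 for SRP72 and −0.20 for the receptor subunit SRPRA, whose dimmer transcript had −0.18. Among the genes of the Sec61 channel, which forms the pore, SEC61B had −0.31, SEC61G −0.28, SEC61A1 −0.16 and SEC63, which couples the channel to the chaperone HSPA5, −0.12. SPCS1 and SPCS2 of signal peptidase had −0.21 and −0.15. SSR2 and SSR4 of the translocon-associated complex had −0.04 and 0.06, with 95% confidence intervals of −0.33 to 0.25 and −0.25 to 0.36, so that 3 subunits of the same complex had unlike values; whether SSR1 differed from them was not tested.

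**Figure D2:**
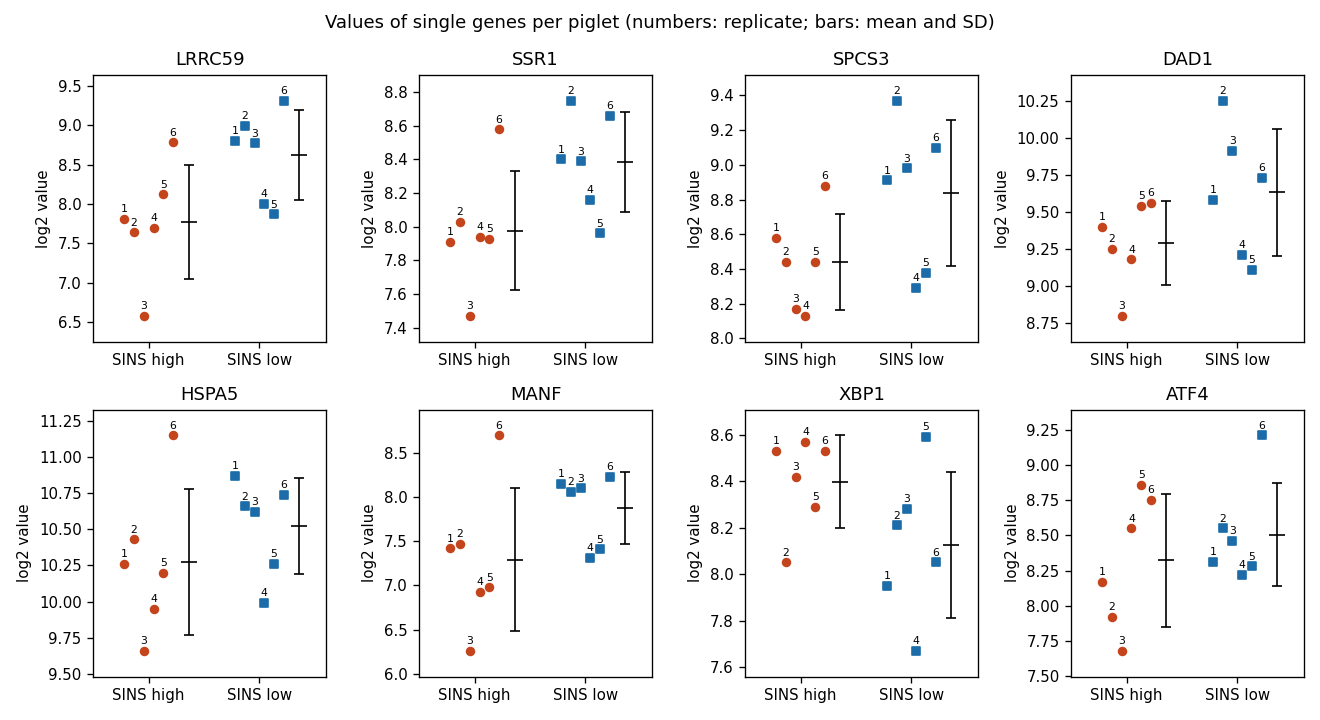
Log2 values of 8 members in each piglet, with SINS high as circles on the left and SINS low as squares on the right, the replicate number at each point, and mean and SD as bars. The groups overlap in every panel; for LRRC59, SSR1, SPCS3, HSPA5 and MANF SINS high replicate 6 is the highest of its group and SINS low replicates 4 and 5 are the lowest of theirs.

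In glycosylation, 0 of 5 measured subunits of oligosaccharyltransferase passed the filter, although all 5 had a negative log2(FC), with a median of −0.16. DAD1, a small subunit that is needed for the stability of the enzyme, had the lowest. Its lowest, median and highest values were 8.80, 9.33 and 9.56 in SINS high and 9.11, 9.66 and 10.25 in SINS low. All 6 SINS high piglets lay below the SINS low median, but 1 below every SINS low piglet, and the log2(FC) was −0.34 (standard error 0.19, 95% confidence interval −0.74 to 0.06). STT3A and STT3B are the alternative catalytic subunits, of which STT3A serves chains that are still entering the channel. STT3A had 9.19, 9.71 and 10.28 in SINS high and 9.52, 10.09 and 10.52 in SINS low, a log2(FC) of −0.28 (standard error 0.19). STT3B had 8.71, 8.87 and 8.97 in SINS high and 8.65, 8.97 and 9.31 in SINS low, a log2(FC) of −0.11 (standard error 0.11). For STT3A the groups overlapped over most of their range, and for STT3B all SINS high values lay within the range of SINS low. RPN1, which holds substrate chains near the active site, had 9.18, 9.67 and 10.03 in SINS high and 9.51, 9.87 and 10.11 in SINS low, a log2(FC) of −0.16, and DDOST had −0.06.

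The folding genes had the lowest class median, −0.27, yet 0 of 16 passed the filter. The piglets of SINS high differed widely among themselves. MANF, a chaperone-binding protein that is made under ER stress, had 6.26, 7.20 and 8.70 as lowest, median and highest values in SINS high and 7.31, 8.08 and 8.23 in SINS low. The highest and the lowest of the 12 piglets were both SINS high piglets, replicates 6 and 3. The log2(FC) was −0.58 with a standard error of 0.32 (95% confidence interval −1.26 to 0.10). DNAJB11, a cochaperone of HSPA5, had 6.28, 6.78 and 8.38 in SINS high and 6.83, 7.48 and 7.96 in SINS low, a log2(FC) of −0.53 (standard error 0.30, 95% confidence interval −1.18 to 0.12). HSPA5 (BiP), the main chaperone of the ER lumen and the usual readout of the unfolded protein response, had 9.66, 10.23 and 11.15 in SINS high and 9.99, 10.64 and 10.87 in SINS low. Its log2(FC) was −0.25 (standard error 0.22, 95% confidence interval −0.71 to 0.22, exact permutation test, two-sided p = 0.333). For these 3 genes 5 of 6 SINS high piglets lay below the SINS low median and replicate 6 above every SINS low piglet.

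CALR, the calcium-binding lectin chaperone calreticulin, had the smallest p of the class. It had 10.39, 10.59 and 11.24 in SINS high and 10.51, 11.12 and 11.26 in SINS low, a log2(FC) of −0.31 (standard error 0.16, 95% confidence interval −0.66 to 0.03). The membrane-bound lectin chaperone CANX had −0.08. PDIA6, a disulfide isomerase, had 8.11, 8.60 and 9.38 in SINS high and 8.46, 9.04 and 9.25 in SINS low, a log2(FC) of −0.32 (standard error 0.19, 95% confidence interval −0.72 to 0.07). The other isomerases followed in the same direction without passing, PDIA4 with −0.28, PDIA5 with −0.22, PDIA3 with −0.19 and ERP44, which retrieves clients from the early secretory pathway, with −0.14. ERO1A, the oxidase that recharges the isomerases, had −0.06. Of the remaining chaperones and cochaperones HYOU1, which exchanges the nucleotide of HSPA5, had −0.44, CRELD2 −0.38, SDF2L1 −0.30, ERP29 −0.01 and DNAJB9 0.00. The 95% confidence interval of DNAJB9, −0.34 to 0.34, stayed inside the fold change of the filter, while those of HYOU1 and CRELD2 reached −1.08 and −1.04.

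The stress sensors and transcription factors lay on both sides of 0, and their difference from the folding genes was not tested. Of 6 genes 0 passed, 3 were above and 3 below 0, and the median was 0.01 (0.00 after centring each array on its median). XBP1, whose mRNA is spliced by ERN1 into the form that codes for the active factor, had the smallest p of this class with a value above 0. Its lowest, median and highest values were 8.05, 8.48 and 8.57 in SINS high and 7.67, 8.13 and 8.59 in SINS low, which gives a log2(FC) of 0.27 (standard error 0.14, 95% confidence interval −0.03 to 0.58, exact permutation test, two-sided p = 0.102). The highest piglet of all was in SINS low, replicate 5, and the array value does not tell the spliced from the unspliced form. ERN1 had 6.08, 6.56 and 6.86 in SINS high and 6.09, 6.30 and 7.00 in SINS low, a log2(FC) of 0.10 (95% confidence interval −0.27 to 0.47). EIF2AK3, the kinase that slows translation, had 5.71, 5.91 and 6.02 in SINS high and 5.77, 5.86 and 5.94 in SINS low, a log2(FC) of 0.04 (−0.14 to 0.21). ATF6 had 8.18, 8.36 and 8.80 in SINS high and 8.34, 8.39 and 8.64 in SINS low, a log2(FC) of −0.02 (−0.24 to 0.21). The intervals of EIF2AK3 and ATF6 thus lay within a fold change of 1.3 in either direction.

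The factors downstream of EIF2AK3 gave similar pictures. ATF4, which is translated when this kinase is active, had 7.68, 8.36 and 8.86 in SINS high and 8.22, 8.39 and 9.21 in SINS low, a log2(FC) of −0.18 (standard error 0.21, 95% confidence interval −0.64 to 0.28). DDIT3 (CHOP), a transcription factor of prolonged stress, had 4.80, 5.25 and 5.40 in SINS high and 4.81, 5.21 and 5.90 in SINS low, a log2(FC) of −0.05 (−0.41 to 0.31). For ATF4, 3 SINS high piglets lay below every SINS low piglet and the other 3 among them, and for DDIT3 the groups overlapped. Of 20 measured targets of these factors, 0 were higher and 1 was lower in SINS high, with a median log2(FC) of −0.03. That is 5.0% lower, near the 3.8% of all named genes. The lower gene was ATF3, a stress-induced factor, with 3.90 ± 0.30 in SINS high and 4.46 ± 0.35 in SINS low (SD, n = 6 each) and a log2(FC) of −0.56 (standard error 0.17, limma, adjusted p = 0.287, exact permutation test, two-sided p = 0.00649). The other well-known targets did not pass, among them the asparagine synthetase ASNS with 0.09, TRIB3 with −0.04, PPP1R15A with −0.03 and CHAC1 with 0.00.

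The degradation class was measured with 3 of its 6 genes, and 0 passed. DERL1, a membrane protein through which misfolded chains leave the ER, had 7.81, 7.96 and 8.33 in SINS high and 7.90, 8.14 and 8.37 in SINS low, a log2(FC) of −0.14 (95% confidence interval −0.37 to 0.09). SEL1L, the scaffold of the ubiquitin ligase of the ER membrane, had 8.18, 8.41 and 9.01 in SINS high and 7.91, 8.66 and 9.09 in SINS low, a log2(FC) of −0.09 (−0.51 to 0.32). EDEM1, which marks glycoproteins for degradation, had 6.52, 6.77 and 7.42 in SINS high and 6.52, 6.79 and 7.00 in SINS low, a log2(FC) of 0.04 (−0.26 to 0.35). In each of these 3 genes SINS high replicate 6 was the highest of its group.

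Piglets of the same group differed in the same order over many of the ER genes. SINS high replicate 6 was the highest of the 6 SINS high piglets for 39 of 48 members (81.2%), against 21.3% of all named genes. SINS high replicate 3 was the lowest of its group for 29 members (60.4%), against 19.4% of all named genes. In SINS low, replicates 5 and 4 were the lowest for 23 (47.9%) and 21 (43.8%) members, against 17.8% and 19.0% of all named genes. The mean of the folding genes, each set to its own mean over the 12 piglets, was 0.66 in SINS high replicate 6 and −0.55 to −0.02 in the other SINS high piglets. In SINS low it was −0.05 and −0.25 in replicates 4 and 5 and 0.19 to 0.33 in the other piglets. Within SINS high, the means of translocation and glycosylation were again highest in replicate 6, with 0.35 and 0.23, and lowest in replicate 3, with −0.45 and −0.49. SINS low replicate 2 reached 0.35 and 0.50 in these classes. The stress sensors did not, with 0.06 in replicate 6 and −0.09 in replicate 3 of SINS high. SINS high replicate 6 also differed from its group in markers of other cells. It was the lowest SINS high piglet in the Kupffer cell markers (−0.20, the others 0.07 to 0.48). It was also the lowest of them in the endothelial markers (−0.25, the others 0.11 to 0.45) and the highest in the proliferation markers (0.38). In the proliferation markers SINS high replicates 3 and 5 had −1.23 and −1.10, and replicate 3 was again the lowest of its group. SINS low replicates 4 and 5 had −1.10 and 0.57, and replicate 2 was the highest of SINS low with 0.95. The part of proliferation in the order of the ER genes was not tested. The hepatocyte markers of SINS high replicate 6 were at 0.03. Its mean over the plasma and B cell markers was 0.26, and the single markers went both ways. TNFRSF17 (5.01) and PAX5 (3.13) were the highest of SINS high in this piglet, and CD79B (4.06) lay above every SINS low piglet. JCHAIN (3.42) and MZB1 (3.67), markers of plasma cells, and CD79A (2.88) were the lowest of SINS high. The part of these cells in its ER values was not tested.

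**Figure D3:**
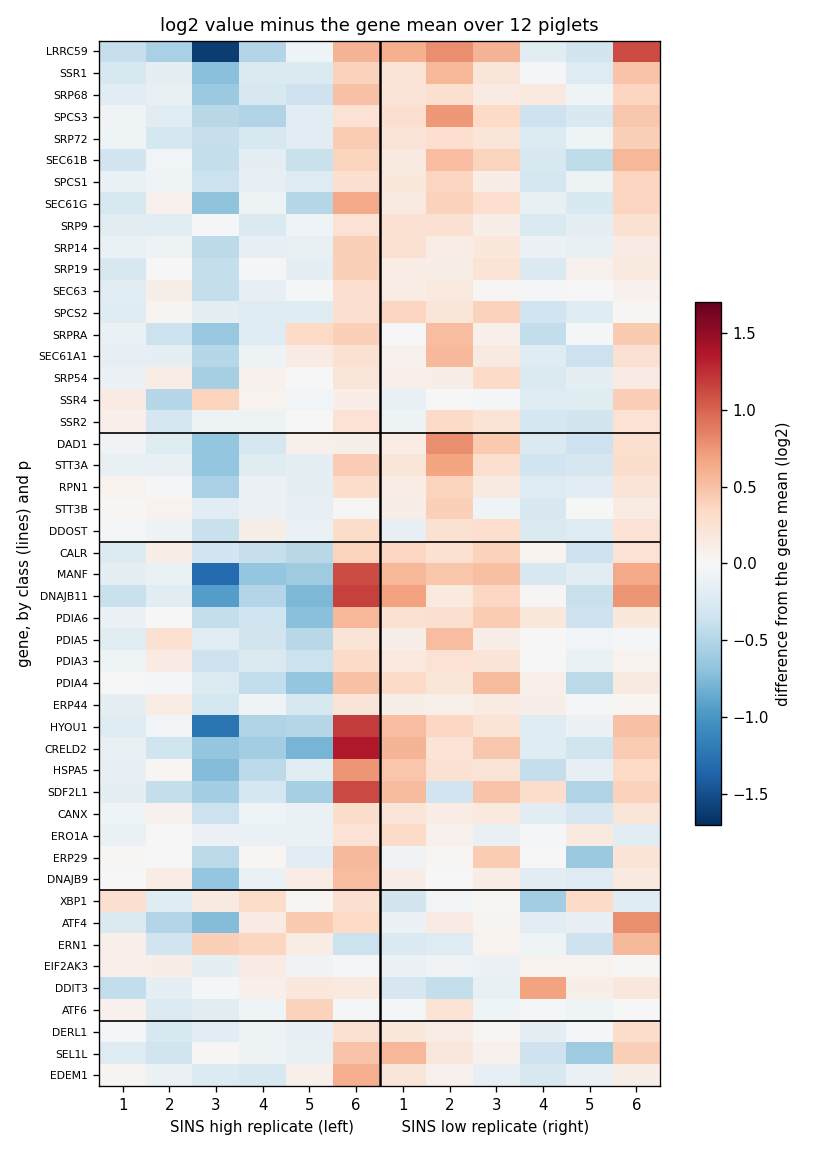
Log2 value of each member in each piglet minus the mean of that gene over the 12 piglets (colour), with SINS high replicates 1 to 6 left of the black line and SINS low replicates 1 to 6 right of it, and members grouped by class from translocation at the top to degradation at the bottom. SINS high replicate 6 is red and SINS high replicate 3 blue over most translocation, glycosylation and folding genes, and SINS low replicates 4 and 5 are paler or blue beside the other SINS low piglets.

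The widest spread in SINS high was found in folding genes and LRRC59, and in SINS low in LRRC59. In SINS high the SD was 0.82 for MANF, 0.80 for HYOU1 and CRELD2, 0.75 for DNAJB11, 0.72 for LRRC59, 0.64 for SDF2L1 and 0.51 for HSPA5, while the median over the members was 0.29 and over all named genes 0.21. In SINS low the SD of the same genes was 0.41, 0.31, 0.38, 0.43, 0.57, 0.45 and 0.33, with a median of 0.27 over the members and 0.20 over all named genes. The larger SD was that of SINS high in 14 of the 16 folding genes, 11 of the 18 translocation genes, 1 of the 5 glycosylation genes, 4 of the 6 stress sensors and 2 of the 3 degradation genes, and in 6616 of all 12307 named genes. HYOU1 shows the width, with 7.29 in SINS high replicate 3 and 9.72 in SINS high replicate 6, against 8.33 to 9.06 over all SINS low piglets.

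**Figure D4:**
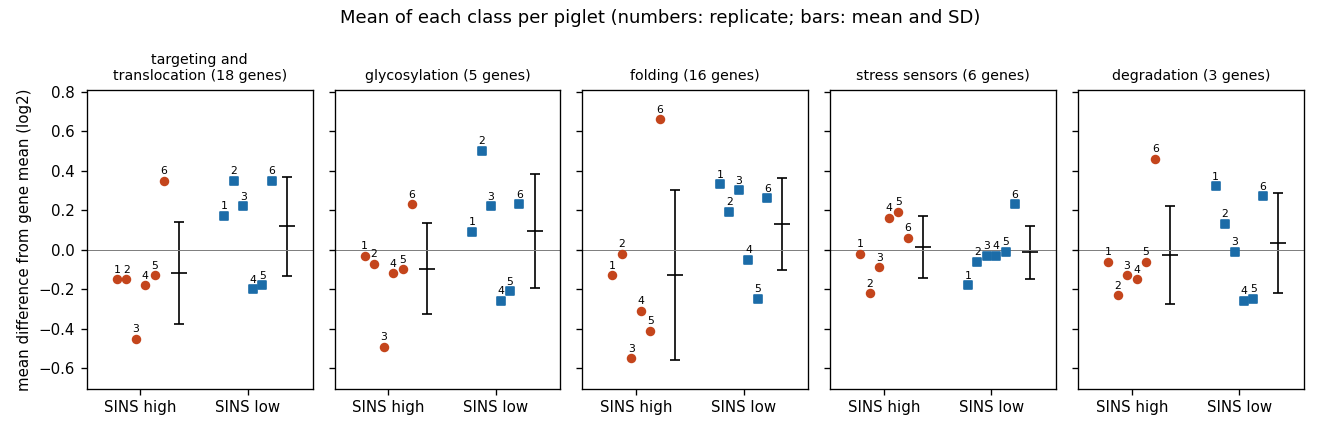
Mean over the members of each class of the log2 value minus the gene mean, per piglet, with SINS high (circles) left of SINS low (squares), replicate numbers at the points, and mean and SD of the 6 piglets as bars. SINS high replicate 6 lies at 0.66 in folding while the other SINS high piglets lie at or below −0.02, and the stress sensors do not separate the same piglets.

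The count of lower genes depended on single piglets. Without SINS high replicate 6, 17 of 48 members were lower (35.4%, against 6.2% of all named genes), of which 7 belong to translocation, 1 to glycosylation and 9 to folding, and the median log2(FC) was −0.25 over the members and −0.41 in folding. HSPA5 then had a log2(FC) of −0.42, MANF −0.86, DNAJB11 −0.82, HYOU1 −0.72 and CRELD2 −0.69, and 0 members had an adjusted p below 0.05 (smallest 0.0521 for SRP68, limma), while 171 of all transcripts (0.674%) did in the same fit. Leaving out the SINS high piglet with the highest ER values lowers the SINS high means by itself, so that these counts are no independent evidence. Without SINS low replicate 5, 10 members were lower (20.8%, against 4.81% of all named genes), while without SINS high replicate 1, 3 or 5 or SINS low replicate 2 or 6 LRRC59 alone was lower, against 2.72% to 3.75% of all named genes. The stress sensors and degradation genes had 0 calls in each of these fits.

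Other ER genes that are not members had few calls, lower ones at shares to be read against the 3.8% of all named genes, and none of them higher. Of 19 further translocation genes 2 were lower, with a median log2(FC) of −0.10: MMGT1, a subunit of the complex that inserts membrane proteins, with −0.42 (standard error 0.13, exact permutation test, two-sided p = 0.00433), and SEC61A2, a second form of the Sec61 channel protein, with −0.38 (standard error 0.11). Of 24 further glycosylation genes 1 was lower, ALG10, which adds the last glucose to the sugar chain before transfer, with −0.61 (standard error 0.22), and the median was −0.19. Of 31 further folding genes 2 were lower, the glucosyltransferase-family gene UGGT2 with −0.42 (standard error 0.17) and the collagen chaperone SERPINH1 with −0.47 (standard error 0.21), and the median was −0.05. Of 23 further degradation genes 0 passed (median −0.04), and of 15 further sensors and regulators EIF2S1, the subunit of eIF2 that EIF2AK3 phosphorylates, was lower with −0.40 (standard error 0.13), with a median of −0.06. The lowest adjusted p among these genes, that of SEC61A2, was 0.287 (limma).

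Secreted proteins and the chaperones outside the ER were counted as well, and their difference from the ER genes was not tested. Of 25 secreted plasma proteins, which are the main clients of the hepatocyte ER, 2 were higher and 0 lower in SINS high, the copper carrier CP (ceruloplasmin) with 0.75 (standard error 0.27) and the protease inhibitor chain ITIH1 with 0.38 (standard error 0.17), and the median log2(FC) was 0.09. Of all named genes 2.3% were higher and 3.8% lower, and counts this small do not set the secreted proteins apart. Of 35 chaperones of the cytosol and mitochondria, 18 were lower and 0 higher (51.4% lower), with a median of −0.40, against 3 of 48 members and −0.16. TCP1 and CCT3 of the cytosolic chaperonin had −0.66 and −0.58, and HSPA4 had −0.59 (standard errors 0.16, 0.14 and 0.14). In these 3 genes too SINS high replicate 6 was the highest of its group. For TCP1 it had 8.33, against 7.38 to 7.74 in the other SINS high piglets and 8.07 to 8.67 in SINS low. This did not hold for every gene of the list, and for HSPB8 (4.70) and BAG3 (6.45) SINS high replicate 6 was the lowest of its group. Its mean over the 35 genes was 0.18, where the other SINS high piglets had −0.43 to −0.08 and the SINS low piglets 0.04 to 0.26.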

How the data were processed

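Liver RNA of 12 piglets was hybridised to Affymetrix Porcine Gene 1.0 Sense Target arrays, 1 per piglet. The deposited values are on a log2 scale and came from RMA in Affymetrix Expression Console, as run by the authors, with probes summarised per transcript. Tool versions are not given in the sources used here. Of 25388 transcripts 13257 carry 1 gene symbol in the platform annotation. SINS high (n = 6) was compared with SINS low (n = 6) over all transcripts with limma 3.58.1 (lmFit, eBayes; R 4.3.3), no covariates entering. Exact permutation tests ran over all 924 assignments. The procedure was tested on simulated data with independent noise per transcript, which does not cover members that vary together.

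The members and lists were chosen with earlier results of these data known. Lowest, median and highest values (for LRRC59 the value of each piglet) are given for the 4 members of each class with the smallest p, HSPA5 and all stress sensors. For lists other than cell markers, the log2(FC) is given for the 3 called genes with the smallest p. The spread (SD), confidence intervals and other genes named by value were chosen after the values were seen. Alternatives were the methods' t-test, an intensity trend with robust eBayes, array weights, leaving out the dimmest 25% of transcripts (all 48 members stayed), quantile normalization once more, median centring, a replicate block, all transcripts of a gene, a fold change above 1.5, adjusted p-values, and leaving out each array. No sequences were used here.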

Additional observations from a re-analysis of the deposited data

Results flagged for a closer look

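Among 108 groups of 6 values (the 48 members, the class means and the mean of all members, in both groups), 12 had a highest or lowest piglet far from the rest (by Dixon's critical value for 6 samples), where chance gives about 5.4. SINS high replicate 6 was such a high value in 6 of them. It had 8.38 for DNAJB11 (next 7.03), 6.91 for CRELD2 (next 5.43), 7.14 for SDF2L1 (next 5.84) and 6.08 for ERO1A (next 5.83), a mean of 0.41 over all members (next −0.11) and of 0.46 over the degradation class (next −0.06). SINS low replicate 6 stood high with 8.16 for SSR4 (next 7.73) and 9.21 for ATF4 (next 8.55), and SINS low replicate 2 with 7.16 for PDIA5 (next 6.75) and 8.64 for ATF6 (next 8.42). SINS low replicate 4 stood low with 6.65 for SRP19 (next 6.97), and SINS low replicate 5 with 8.46 for PDIA6 (next 8.99).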

How the results depend on the processing

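The number of members called lower, 3, was also 3 with an intensity trend, without dim transcripts, after quantile normalization or median centring and with all transcripts of a gene. In these fits 3.41% to 4.61% of all named genes were lower. With the methods' t-test the number was 1 (LRRC59), against 2.99% of all named genes. That test gave 1 member an unadjusted p below 0.05 and a smallest adjusted p of 0.479. The number was 1 with a fold change above 1.5, where the share of all named genes was not counted, and 0 with adjusted p-values. With array weights it was 6, against 4.12% of all named genes. When each array was left out in turn it was 1 to 17, against 2.72% to 6.2% of all named genes. The class counts that follow are to be read against the same shares. Within translocation the number was 1 with the t-test, 1 at the higher fold change, 0 with adjusted p-values and 1 to 7 without each array. In glycosylation it was 0 to 1 without each array. In folding it was 3 with array weights and 0 to 9 without each array. The number called higher was 0 in every alternative. With the replicate number as a block 5 members were lower, 2 of them folding genes, against 4.13% of all named genes. The numbers name different piglets, and the correlation of same-numbered piglets ranged from −0.000303 to 0.341, below 0.1 for 4 of the 6 numbers, and 2 of the 6 SINS high piglets correlated best with their own number. Small values changed sign, so that the number of negative members is not fixed: ATF6 was 0.01 with array weights, and without each array ATF6 ranged from −0.09 to 0.03, DDIT3 from −0.14 to 0.08, SEL1L from −0.22 to 0.01, EDEM1 from −0.08 to 0.10, SRP54 from −0.14 to 0.02, SSR4 from −0.02 to 0.16, SSR2 from −0.11 to 0.02, DDOST from −0.13 to 0.01, ERP29 from −0.14 to 0.08 and DNAJB9 from −0.10 to 0.14. The median log2(FC) without each array ranged from −0.25 to −0.11 over all members, −0.27 to −0.15 in translocation, −0.23 to −0.08 in glycosylation, −0.41 to −0.20 in folding, −0.02 to 0.06 in the stress sensors and −0.20 to 0.01 in degradation. The values farthest below 0 were those without SINS high replicate 6 for all members, glycosylation, folding and degradation, the glycosylation median was −0.08 without SINS high replicate 3 and −0.09 without SINS low replicate 2, and the degradation median was 0.01 without SINS low replicate 1. The median of all transcripts was 0.0133 as deposited, 0.0043 after quantile normalization and −8e-04 after centring. The cause of these changes was not tested.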

Other observations

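Some ER genes outside the members differed by less than the fold change of the filter and were noticed after their values were seen. FAM8A1, a cofactor of the ubiquitin ligase of the ER membrane, was 6.46 to 6.72 in SINS high and 5.92 to 6.44 in SINS low, without overlap, with a log2(FC) of 0.31 (standard error 0.10, limma, adjusted p = 0.307). It was the 1 gene without overlap among 23 further degradation genes, and 27 of all 12307 named genes (0.219%) were higher without overlap. The transmembrane thioredoxin genes TMX1, TMX2 and TMX3 had log2(FC) of −0.33, −0.30 and −0.24. Their unadjusted p from limma were 0.0264, 0.0216 and 0.0376 (adjusted p = 0.374, 0.367 and 0.408). Of the 31 further folding genes 5 had an unadjusted p below 0.05 from limma, against 13.1% of all named genes. DPM1, which makes the mannose donor of the ER, had −0.24 and RNF5, a ubiquitin ligase of the ER membrane, −0.30.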
